A study of Mus musculus with 20 samples.

Results

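The Kupffer cell and other immune markers are 40 genes whose transcripts mark the macrophages, lymphocytes, granulocytes and antigen-presenting cells of the liver. They were found by name among the non-control probes of a whole-genome mouse microarray, with older names such as Emr1 for Adgre1 included, and each gene was read at its brightest detected probe. The array carried 54 probes for the 40 genes, of which 47 were detected, and 38 genes could be tested among 21998 in all. Liver RNA came from 20 ovariectomized mice in 4 groups of 5, each mouse on its own one-colour array. The groups were homozygous estrogen receptor alpha nulls (ERa_KOHmz) given estradiol (E2), nulls given placebo, wild types (ERa+/+) given E2 and wild types given placebo. All mice had lost their ovaries at 4 weeks of age and were gavaged at 9 weeks with E2 at 1 mg/kg or with the placebo, castor oil holding 5% ethanol. They were killed 4 h later under ketamine and xylazine. Wild types descended from the same parents as the nulls, and mice were housed 5 to a cage. The labels name no strain and do not say which part of Esr1 is deleted. They name no cell type to which the deletion is restricted, and the receptor of immune cells and that of hepatocytes cannot be told apart here.

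Kupffer cells are the resident macrophages of the liver. They sit in the sinusoids, clear particles, bacteria and aged red cells from portal blood, and carry the lectin Clec4f, which in mice marks them and few other cells. The liver also holds T cells, natural killer (NK) cells, B cells, monocytes, neutrophils and dendritic cells, some resident and some passing through in the blood. Estrogen receptor alpha is a nuclear receptor made mainly by hepatocytes in this organ and also found in several kinds of leukocyte. Here a whole piece of liver was measured, so fewer cells of a type and less RNA per cell cannot be told apart.

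Levels are log2 signals relative to the 75th percentile of the array's non-control spots, so that 0 lies at that percentile, and a difference of 1 is a doubling. A level depends on the probe and is compared between animals, never between genes. The share of spots well above background ranged from 51.6% to 70.0% over the 20 arrays. The 70.0% was that of animal 1 of the E2-treated wild types, and the next highest was 61.3%. Esr1 itself read between -2.09 and -1.31 in E2-treated nulls and between -2.16 and -0.93 in placebo-treated nulls, against 0.12 to 1.02 in E2-treated wild types and -0.04 to 0.59 in placebo-treated wild types. Every null lay below every wild type. The labels do not place the Esr1 probe inside or outside the deleted part. There were 4 slides, every one of which held at least 3 groups, and values by slide stand beside the results they touch.

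All 13 Kupffer and macrophage markers had a detected probe, and 34 of the 38 tested genes were well above background on at least 4 of the 5 arrays of every group. The exceptions were Cd163, Cx3cr1, Gzmb and Ms4a1. The 2 untested genes were Cd8a, the co-receptor of cytotoxic T cells, and Klrb1c, the NK1.1 antigen of NK cells. The brighter Cd8a probe was well above background in 1 E2-treated null, 2 placebo-treated nulls, 3 E2-treated wild types and 3 placebo-treated wild types. The brighter Klrb1c probe was so in 1, 0, 2 and 0 animals of the same groups. The second probe of each gene was not well above background on any array.

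No marker passed the test for E2 or for genotype at an adjusted p under 0.05 (limma, Benjamini-Hochberg over all genes). The count was 0 of 38 for E2 against placebo in nulls, where 0.00455% of all genes passed, and 0 of 38 in wild types, where 0.318% passed. It was 0 of 38 for the difference between those E2 effects (0.164% of all genes), for nulls against wild types under E2 (0.464%) and for nulls against wild types under placebo (0.0727%). It was also 0 of 38 for genotype averaged over both treatments (0.696%) and for E2 averaged over both genotypes (0.132%). At shares this low, 0 of 38 is near the background and is no result about the markers. The smallest adjusted p of any marker was 0.800 for E2 in nulls, 0.544 for E2 in wild types, 0.614 for the difference of the E2 effects, 0.509 for genotype under E2 and 0.511 for genotype under placebo (limma). For genotype over both treatments it was 0.575, and for E2 over both genotypes 0.600.

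At an unadjusted p under 0.05, 2 of 38 markers passed for E2 in nulls (6.06% of all genes did), 2 for E2 in wild types (8.28%) and 2 for the difference of the E2 effects (7.39%). None passed for genotype under placebo (10.1%) or for genotype over both treatments (12.9%). Under E2, 2 passed between genotypes (9.63%), and 2 passed for E2 over both genotypes (7.37%). These counts lie near or below the background shares. They rest on Gzmb and Itgam, with Cd2 and Cd79b for E2 in wild types and Gzmb and Cd2 for E2 over both genotypes. Itgam was read here at its brightest probe, which did not follow its other probes, as given below.

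Direction is given as a description. With E2, 27 of 38 markers lay above 0 in nulls (46.8% of all genes did), with a median difference of 0.10, and 34 of 38 in wild types (50.6% of all genes), with a median of 0.21. The median over all genes was -0.01 in nulls and 0.00 in wild types. Between nulls and wild types, 10 of 38 markers lay above 0 under E2 (49.6% of all genes) and 24 of 38 under placebo (53.4% of all genes), with medians of -0.10 and 0.03. These counts hang on the scaling. Under median scaling, which set the median over all genes at -0.12 for E2 in nulls, -0.22 for E2 in wild types and 0.11 between genotypes under E2, 19, 17 and 22 of 38 markers lay above 0. Above that shifted median lay 27, 34 and 10 of 38. This scaling moves all genes of an array by the same amount, so a gene's place against that median could not change. Without animals numbered below 750, 18 of 38 lay above 0 between genotypes under E2. Such numbers belong to animals 1, 2 and 3 of the placebo-treated nulls and animals 1 and 2 of each E2-treated group. Leaving them out kept only animals 4 and 5 of the placebo-treated nulls. The plot of differences by gene shows how wide each interval is.

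**Figure D1:**
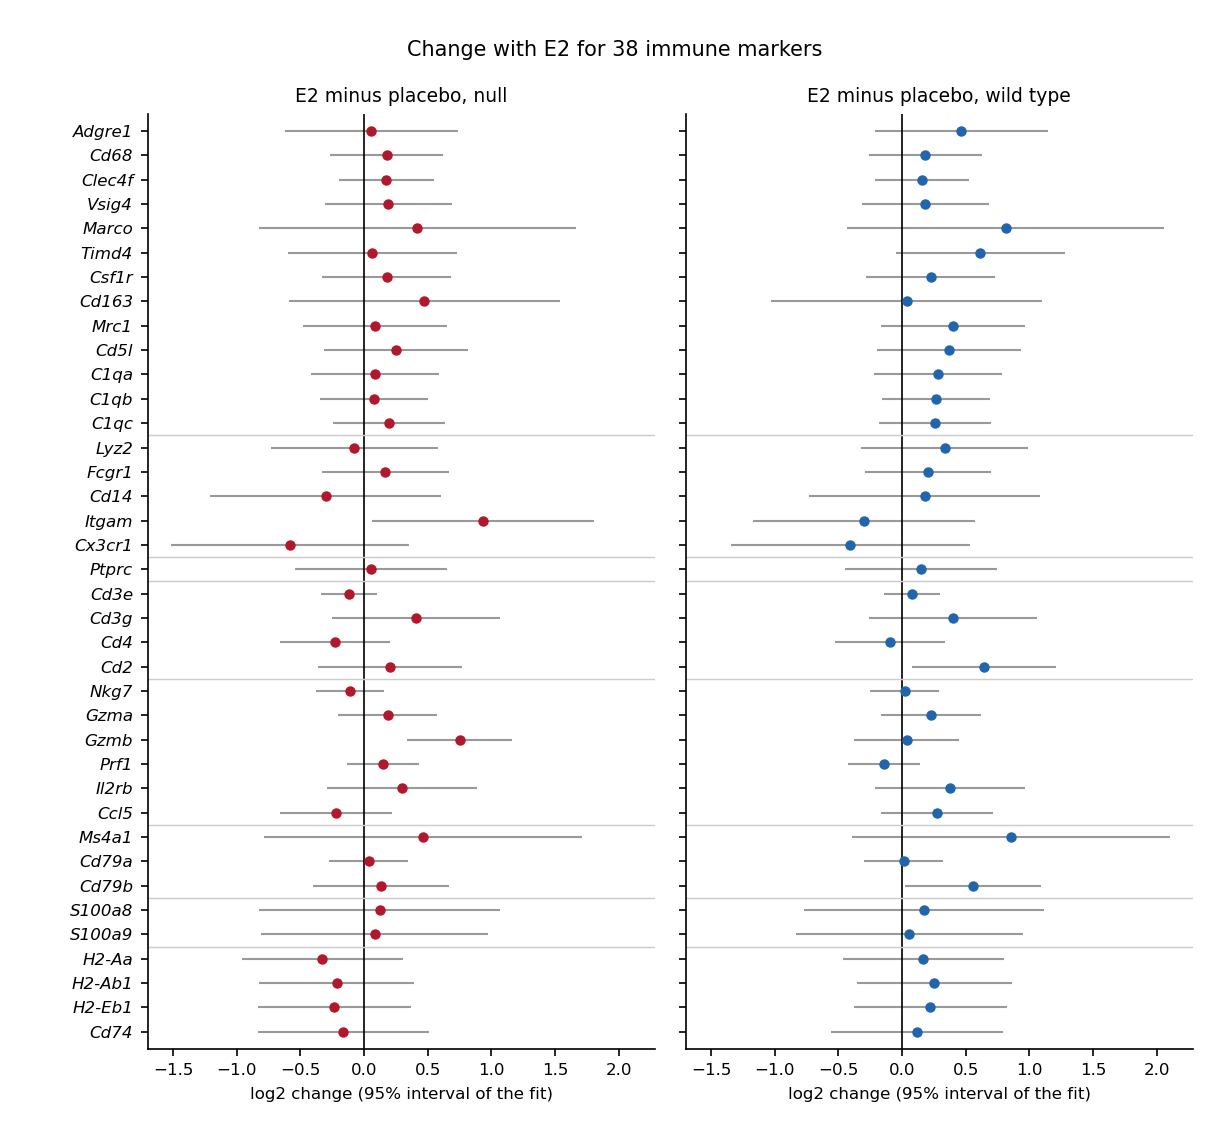
Log2 difference between E2 and placebo for each of the 38 tested markers, in nulls and in wild types, with the 95% interval of the fit (5 animals a group) and a line at 0. Right of 0 lie 27 of 38 points in nulls and 34 of 38 in wild types (19 and 17 under median scaling), and nearly all intervals span 0.

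The Kupffer and macrophage markers varied between animals, and E2-treated and placebo-treated groups overlapped in each of them. Some intervals were wide, such as -0.43 to 2.06 for Marco with E2 in wild types. With E2, all 13 lay above 0 in nulls, with a median of 0.18 and a range of 0.06 (Adgre1) to 0.47 (Cd163), and all 13 in wild types, with a median of 0.27 and a range of 0.04 (Cd163) to 0.81 (Marco). None passed the test. Most of the genes moved together within a liver, so the 13 signs are not 13 independent readings. When arrays were centred on their median instead, the median of all genes moved to -0.12 in nulls and -0.22 in wild types. Then 8 of 13 lay above 0 in each genotype. All 13 lay above that median, a place that this scaling could not change. The median of the list also differed between slides, each of which held few animals of a group. In nulls it was -0.24 on slide 1 (2 of 13 above 0), 0.38 on slide 2 (12 of 13) and 0.71 on slide 3 (13 of 13). In wild types it was 0.00 on slide 1 (6 of 13), 0.33 on slide 2 (11 of 13) and 0.03 on slide 4 (7 of 13). Of the nulls, slide 3 held animal 4 with E2 and animals 4 and 5 with placebo. Of the wild types, slide 4 held animal 5 with E2 and animal 1 with placebo. Slide and animal cannot be told apart in these values. Leaving out 1 animal at a time gave medians of 0.04 to 0.27 in nulls and 0.13 to 0.42 in wild types. Between nulls and wild types, 3 of 13 lay above 0 under E2, with a median of -0.13, and 6 of 13 under placebo, with a median of -0.01.

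Clec4f, the C-type lectin of Kupffer cells (probe at chr6:83595281-83595339 of mm9), read 3.40, 3.84, 4.01, 4.36 and 3.63 in E2-treated nulls and 3.62, 4.00, 3.36, 3.72 and 3.66 in placebo-treated nulls. In wild types it read 3.96, 3.94, 4.18, 3.42 and 4.01 with E2 and 3.81, 3.89, 3.27, 3.93 and 3.82 with placebo. All 4 groups overlapped. The E2 difference was 0.18 in nulls (SE 0.18, 95% interval -0.20 to 0.55, adjusted p = 0.931 by limma) and 0.16 in wild types (SE 0.18, interval -0.22 to 0.53, adjusted p = 0.844). The upper bounds lie below a doubling. The difference between nulls and wild types was -0.05 under E2 and -0.07 under placebo (SE 0.18 for each).

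Adgre1 encodes F4/80, the general macrophage antigen of mice (probe at chr17:57622868-57622927). Its levels were 0.48, 0.66, 0.47, 1.29 and 0.37 in E2-treated nulls, with 0.34, 1.45, 0.06, 0.63 and 0.51 in placebo-treated nulls. They were 0.63, 1.37, 2.13, 0.10 and 0.79 in E2-treated wild types, with 0.92, 0.64, -0.11, 0.84 and 0.39 in placebo-treated wild types. Animal 3 of the E2-treated wild types was the highest of all 20, and the groups overlapped. The E2 difference in wild types was 0.47 (SE 0.32, adjusted p = 0.714 by limma).

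C1qa, C1qb and C1qc encode the 3 chains of complement C1q, which tissue macrophages make, and lie side by side on chromosome 4. C1qa read 1.38, 2.04, 1.85, 2.51 and 1.53 in E2-treated nulls, 1.84, 2.05, 1.45, 1.81 and 1.74 in placebo-treated nulls, 1.86, 2.18, 2.71, 1.26 and 2.05 in E2-treated wild types and 1.97, 1.79, 1.14, 1.80 and 1.96 in placebo-treated wild types. C1qb read 1.06, 1.60, 1.35, 2.0 and 1.43 in E2-treated nulls, 1.38, 1.79, 1.12, 1.42 and 1.33 in placebo-treated nulls, 1.55, 1.80, 2.16, 1.01 and 1.53 in E2-treated wild types and 1.59, 1.41, 0.82, 1.49 and 1.41 in placebo-treated wild types. C1qc read 2.19, 2.60, 2.60, 3.08 and 2.23 in E2-treated nulls, 2.10, 2.76, 2.03, 2.53 and 2.29 in placebo-treated nulls, 2.62, 2.80, 3.15, 2.0 and 2.63 in E2-treated wild types and 2.52, 2.46, 1.85, 2.56 and 2.51 in placebo-treated wild types. The same animals were high and low in all 3 genes: animal 4 was the highest of the E2-treated nulls, animal 3 the highest and animal 4 the lowest of the E2-treated wild types, and animal 3 the lowest of the placebo-treated wild types. The E2 differences were 0.08, 0.08 and 0.20 in nulls and 0.28, 0.27 and 0.26 in wild types for C1qa, C1qb and C1qc, with SEs of 0.20 to 0.24.

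Marco, a scavenger receptor that binds bacteria, was the most variable Kupffer marker. It read 2.47, 2.20, 2.28, 3.02 and 2.30 in E2-treated nulls and 1.88, 3.0, 1.18, 2.48 and 1.64 in placebo-treated nulls. In wild types it read 2.78, 4.60, 4.98, 1.33 and 2.34 with E2 and 4.11, 1.61, 1.67, 2.13 and 2.44 with placebo. Only animals 2 and 3 of the E2-treated wild types and animal 1 of the placebo-treated wild types exceeded 4. Its spread within groups stood at the 98.9th percentile of all genes, against the 62.3rd for Clec4f. The E2 difference was 0.42 in nulls and 0.81 in wild types (SE 0.59 for each, adjusted p = 0.961 and 0.732 by limma).

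Timd4, a phosphatidylserine receptor of long-lived resident macrophages, read -2.04, -1.77, -1.86, -1.06 and -2.12 in E2-treated nulls and -1.86, -1.62, -2.14, -1.62 and -1.94 in placebo-treated nulls. The values were -1.26, -0.86, -0.07, -2.13 and -1.38 in E2-treated wild types and -1.09, -1.67, -2.67, -1.53 and -1.82 in placebo-treated wild types. Animals 1, 4 and 5 of the E2-treated wild types lay within the placebo range. The E2 difference in wild types was 0.61 (SE 0.32, interval -0.05 to 1.28, adjusted p = 0.628 by limma), and the difference between nulls and wild types under E2 was -0.63 (SE 0.32, adjusted p = 0.545).

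The other Kupffer markers were Cd68, a lysosomal glycoprotein, Vsig4, a complement receptor, Csf1r, the receptor for macrophage colony-stimulating factor, Cd5l, a secreted macrophage protein, the mannose receptor Mrc1 and the haemoglobin scavenger receptor Cd163. Their E2 differences ran from 0.09 (Mrc1) to 0.47 (Cd163) in nulls and from 0.04 (Cd163) to 0.40 (Mrc1) in wild types. Cd5l differed by 0.25 in nulls and 0.37 in wild types (SE 0.27 for each). Csf1r differed by 0.18 and 0.22 at its brightest probe. Another detected Csf1r probe followed that probe (r = 0.930, permutation p = 1e-05). A further Csf1r probe, at -0.006 in nulls and 0.064 in wild types, did not (r = -0.0368, permutation p = 0.879). The other detected Cd68 probe had r = 0.570 with the brightest (permutation p = 0.00868). Sinusoidal endothelial cells also make Mrc1, and Cd163 was dim, well above background on 3 or 4 arrays of each group.

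**Figure D2:**
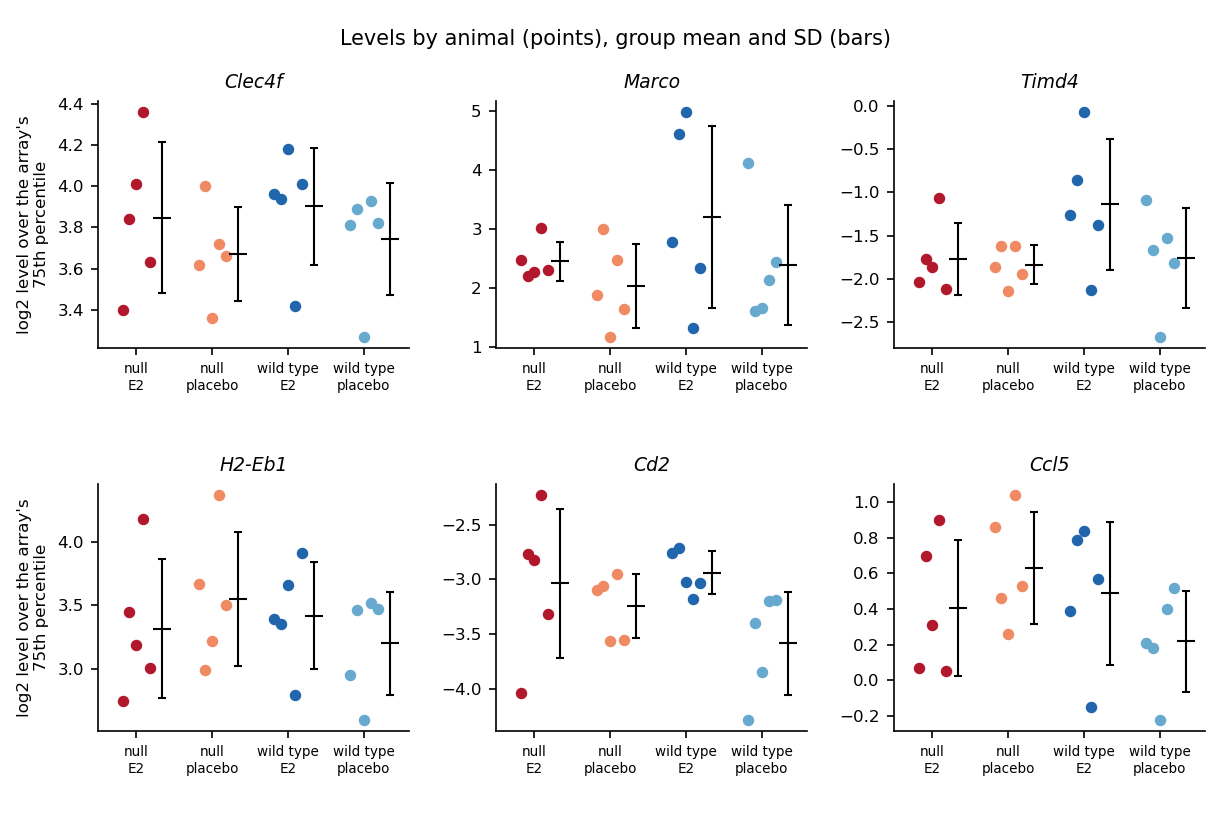
Log2 level of Clec4f, Marco, Timd4, H2-Eb1, Cd2 and Ccl5 in each animal (points) with the group mean and SD (bars), for nulls and wild types given E2 or placebo. Groups overlap for every gene shown except Cd2, where all E2-treated wild types lie above all placebo-treated ones. For Marco, 3 wild types stand above 4.

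Most Kupffer markers followed each other closely from liver to liver, but Cd163 and Mrc1 did not. After each gene's group mean was subtracted, the median correlation over the 78 pairs of Kupffer markers was 0.823, against 0.289 over all 703 pairs of markers and 0.012 over pairs of 1099 genes taken at every 20th place among all genes. The lowest Kupffer pair was at -0.152. A gene's median correlation with the rest of the list was 0.06 for Cd163, 0.33 for Mrc1 and 0.69 to 0.92 for the others. Correlations of this kind share arrays and tissue pieces and are given as a description. Animal 4 of the E2-treated nulls was the highest of its group in 13 of 13 Kupffer markers, animal 2 of the placebo-treated nulls in 12 and animal 3 of the E2-treated wild types in 11. Animal 4 of the E2-treated wild types and animal 3 of the placebo-treated wild types were each the lowest in 11. Averaged over the list as deviations from each gene's mean, the 5 E2-treated nulls ran from -0.28 to 0.69, the placebo-treated nulls from -0.54 to 0.39, the E2-treated wild types from -0.42 to 0.72 and the placebo-treated wild types from -0.62 to 0.16. Group means were 0.03 ± 0.38, -0.15 ± 0.37, 0.22 ± 0.43 and -0.11 ± 0.32 (SD, n = 5 each).

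**Figure D3:**
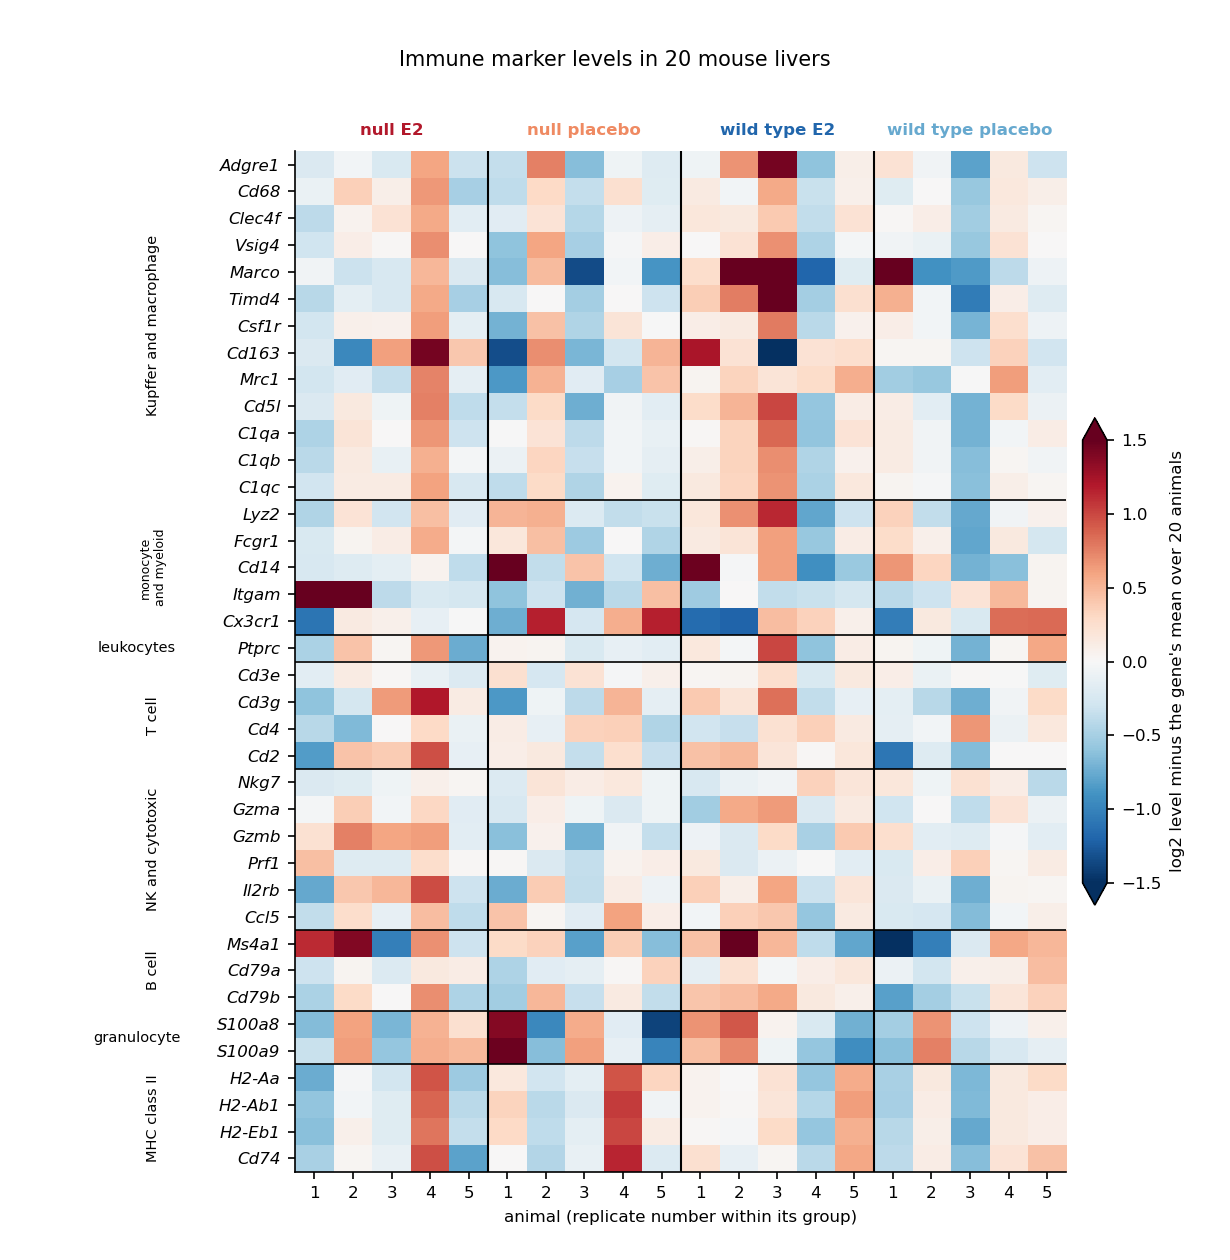
Each tested marker (rows) in each of the 20 animals (columns, by group), coloured by its log2 level minus the gene's mean over all animals. Columns of one colour run through most of the Kupffer block and through the MHC class II block. The animals high in one block are not always high in the other.

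Across the 20 livers, Clec4f and C1qc had Pearson's r = 0.948 and Spearman's rho = 0.931 (permutation p = 1e-05 for each, the smallest that 100000 permutations can give, adjusted over 39 relations to 3.25e-05 for r and 3.545e-05 for rho). Without the 2 livers farthest from the median of Clec4f, r was 0.922, and it was 0.905 on slide 1 and 0.944 on slide 2, with 6 livers each. No value was computed for slides 3 and 4, which held fewer livers. Clec4f and Adgre1 had r = 0.789 and rho = 0.782 (permutation p = 3e-05 and 1e-04, adjusted to 9e-05 and 0.000325), with r = 0.746 without the farthest 2 and 0.853 and 0.768 on the slides. Marco and Timd4 had r = 0.861 and rho = 0.781 (permutation p = 1e-05 and 0.00015, adjusted to 3.25e-05 and 0.00045), with r = 0.719 without the farthest 2 and 0.874 and 0.942 on the slides. The pairs follow each other within slides 1 and 2 as well as over all livers.

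Clec4f was set beside markers of other liver cells and beside array brightness. Its r was 0.206 with Stab2 of sinusoidal endothelium (rho = 0.0737, permutation p = 0.385 and 0.756), 0.198 with Alb of hepatocytes (rho = 0.131, p = 0.397 and 0.579) and -0.138 with the globin gene Hba-a1 (rho = -0.113, p = 0.562 and 0.636). With the share of spots well above background r was -0.00533 (rho = -0.0602, permutation p = 0.982 and 0.801). The adjusted p was at least 0.62 for each of these.

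Of the 5 monocyte and myeloid markers, 2 lay above 0 with E2 in nulls and 3 in wild types, and none passed the test. They are Lyz2 (lysozyme), Fcgr1 (the high-affinity IgG receptor), Cd14 (the co-receptor for endotoxin), the fractalkine receptor Cx3cr1, and Itgam, the CD11b integrin chain of monocytes and neutrophils. Itgam is counted at its brightest probe, with 0.93 in nulls and -0.30 in wild types. Its other detected probes gave 0.12 and -0.06 in nulls and 0.52 and 0.62 in wild types. Lyz2 averaged -0.79 ± 0.37 in E2-treated nulls, -0.72 ± 0.46 in placebo-treated nulls, -0.57 ± 0.76 in E2-treated wild types and -0.90 ± 0.43 in placebo-treated wild types (SD, n = 5 each). Cx3cr1 was measured well above background on 5, 4, 3 and 5 arrays of those groups, and its E2 difference was -0.58 in nulls and -0.41 in wild types. Ptprc, the CD45 antigen of all leukocytes, differed with E2 by 0.05 in nulls and 0.15 in wild types (SE 0.28 for each).

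Itgam gave opposite readings at different probes. Its 3 detected probes lie on the plus strand of chromosome 7 in mm9, and an exon map of that build was not used here. Probe 1 is at chr7:135212140-135212199, probe 2 at chr7:135260275-135260334 and probe 3, the brightest, at chr7:135261755-135261814. Bases 1 to 30 of each are shown because probe 3 opens with a run of 20 alternating bases, in capitals.
Itgam probe 1: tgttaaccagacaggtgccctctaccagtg
Itgam probe 2: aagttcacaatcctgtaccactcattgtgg
Itgam probe 3: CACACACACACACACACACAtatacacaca

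At probe 3 Itgam read 5.23, 4.75, 2.62, 2.78 and 2.74 in E2-treated nulls, 2.40, 2.70, 2.29, 2.61 and 3.46 in placebo-treated nulls, 2.47, 3.02, 2.64, 2.68 and 2.74 in E2-treated wild types and 2.60, 2.70, 3.21, 3.49 and 3.05 in placebo-treated wild types. Animals 1 and 2 of the E2-treated nulls stood above all others, and the groups otherwise overlapped. The E2 difference was 0.93 in nulls (SE 0.42, unadjusted p = 0.0377, adjusted p = 0.819 by limma) and -0.30 in wild types (SE 0.42, adjusted p = 0.881). In nulls it was -0.32 without the animals numbered below 750. At probe 1 it was 0.12 in nulls and 0.52 in wild types (adjusted p = 0.973 and 0.558 by limma), and at probe 2 -0.06 and 0.62 (adjusted p = 0.992 and 0.616). Probes 1 and 2 were chosen as alternatives after the values of probe 3 had been seen.

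A run of 16 such bases occurs in 35 probes of the array, and no other marker is read at one. Of the 33 other detected probes that hold it, 31 had r over 0.9 with probe 3 across the 20 arrays, with a median of 0.988 and a lowest of 0.489. Of the 30890 detected probes without it and with a value on every array (36 detected probes lacked one), 35 did, or 0.113%, with a median of -0.04. Probes 1 and 2 of Itgam had r = 0.815 and rho = 0.650 with each other (permutation p = 5e-05 and 0.00277, adjusted to 0.000139 and 0.00675), with r = 0.739 without the farthest 2, -0.402 on slide 1 and 0.909 on slide 2. With probe 3 they had r = 0.134 and -0.133 (rho = 0.0331 and -0.365, permutation p = 0.573 and 0.581 for r, adjusted p = 0.781 for both). The brightest Itgam probe thus moved with the repeat-holding probes and not with the other Itgam probes.

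**Figure D4:**
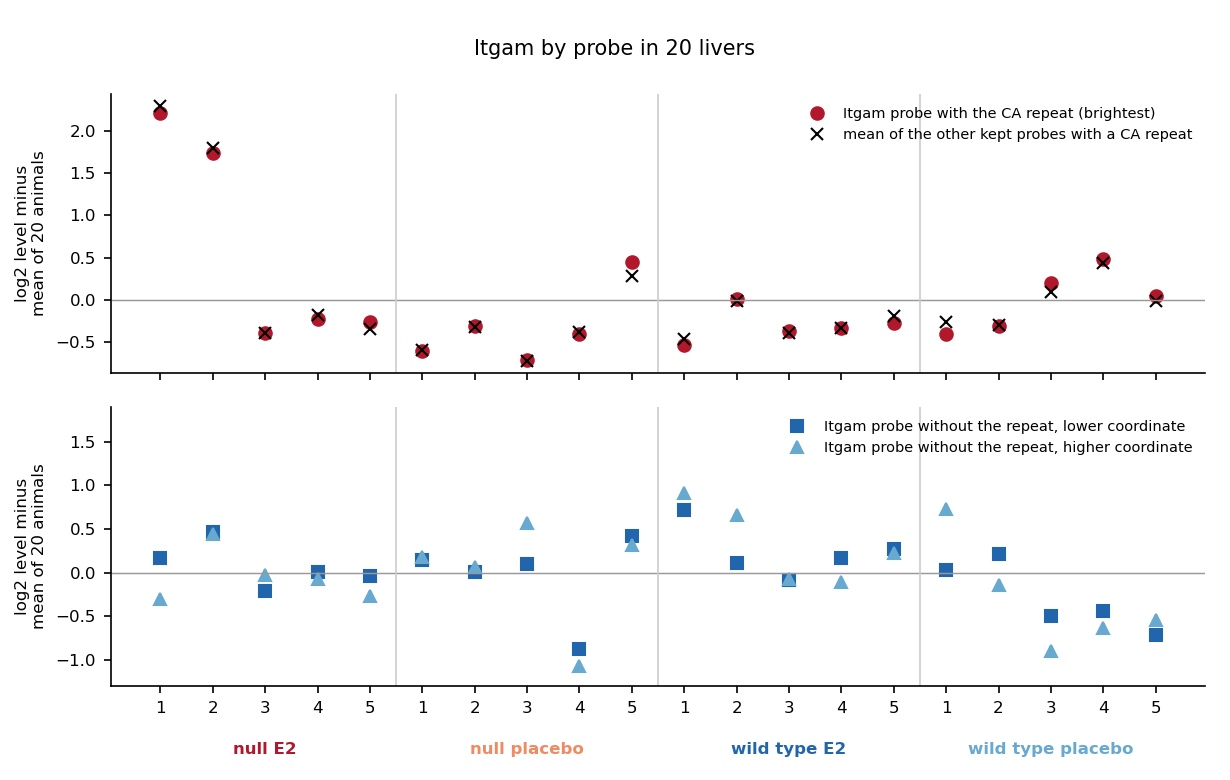
Itgam in the 20 livers, as log2 level minus the mean of all animals. The upper panel shows the brightest probe beside the mean of the 33 other detected probes that hold the CA repeat, and the lower panel the probes without it; animals 1 and 2 of the E2-treated nulls stand out in the upper panel only.

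Of the 4 T cell markers tested, 2 lay above 0 with E2 in nulls and 3 in wild types, and none passed the test. Cd3e and Cd3g encode chains of the T cell receptor complex. Cd3e read 1.00, 1.29, 1.18, 1.05 and 0.96 in E2-treated nulls and 1.40, 0.91, 1.38, 1.15 and 1.24 in placebo-treated nulls, with 1.19, 1.20, 1.41, 0.93 and 1.31 in E2-treated wild types and 1.26, 1.06, 1.18, 1.16 and 0.98 in placebo-treated wild types. Cd3g read -3.85, -3.50, -2.60, -2.04 and -3.12 in E2-treated nulls and -4.10, -3.31, -3.63, -2.73 and -3.38 in placebo-treated nulls, with -2.85, -3.05, -2.42, -3.61 and -3.36 in E2-treated wild types and -3.39, -3.66, -3.98, -3.30 and -2.96 in placebo-treated wild types. Both genes overlapped between all groups. The E2 difference of Cd3e was -0.12 in nulls and 0.08 in wild types (SE 0.10 for each), and that of Cd3g was 0.41 in nulls and 0.40 in wild types (SE 0.32 for each).

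The probes for these chains of 1 receptor did not follow each other: r was -0.0803 and rho -0.125 (permutation p = 0.735 and 0.599, adjusted p = 0.869 and 0.806), with r = -0.357 on slide 1 and 0.0981 on slide 2. The spread of Cd3e within groups stood at the 25.4th percentile of all genes and that of Cd3g at the 88.8th. Cd3g had r = 0.768 and rho = 0.740 with the Kupffer marker Clec4f (permutation p = 6e-05 and 0.00031, adjusted to 0.000156 and 0.000864), r = 0.638 without the farthest 2, and 0.645 and 0.873 on the slides.

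Cd2, an adhesion receptor of T and NK cells, read -4.04, -2.77, -2.82, -2.23 and -3.32 in E2-treated nulls and -3.10, -3.06, -3.56, -2.95 and -3.55 in placebo-treated nulls. It read -2.76, -2.71, -3.02, -3.18 and -3.03 in E2-treated wild types and -4.28, -3.40, -3.85, -3.20 and -3.19 in placebo-treated wild types. All E2-treated wild types lay above all placebo-treated ones (the nearest animals read -3.18 and -3.19), and Cd2 was the only one of 38 markers without overlap (1.5% of all genes had none). The E2 difference was 0.21 in nulls (SE 0.27, adjusted p = 0.954 by limma) and 0.64 in wild types (SE 0.27, unadjusted p = 0.0285, adjusted p = 0.544). Cd2 and Cd3g followed each other, with r = 0.643 and rho = 0.663 (permutation p = 0.00235 and 0.00193, adjusted to 0.00573 and 0.00502). Their r was 0.531 without the farthest 2, 0.57 on slide 1 and 0.80 on slide 2.

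Cd4, the co-receptor of helper T cells, differed with E2 by -0.23 in nulls and -0.09 in wild types at its brightest probe. At its other detected probe it differed by -0.06 and 0.32. There animal 1 of the E2-treated wild types read -2.05, against -3.51 to -3.24 in the rest of its group. Placebo-treated wild types read -3.50 to -3.31 at that probe. The array of that animal had the highest share of spots well above background. The probes had r = -0.0618 and rho = 0.193 over the 20 livers (permutation p = 0.804 and 0.415, adjusted p = 0.922 and 0.599). The livers that read high at 1 Cd4 probe were thus not those that read high at the other. The mean level over the 20 livers was 4.53 at the brightest probe and -3.28 at the other.

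Among the 6 NK and cytotoxic markers tested, 4 lay above 0 with E2 in nulls and 5 in wild types. Ccl5, a chemokine made by NK and memory T cells, read 0.07, 0.70, 0.31, 0.90 and 0.05 in E2-treated nulls and 0.86, 0.46, 0.26, 1.04 and 0.53 in placebo-treated nulls. The values were 0.39, 0.79, 0.84, -0.15 and 0.57 in E2-treated wild types and 0.21, 0.18, -0.22, 0.40 and 0.52 in placebo-treated wild types. The placebo-treated nulls averaged highest, 0.41 above the placebo-treated wild types (SE 0.21, interval -0.02 to 0.85, adjusted p = 0.511 by limma), with overlap. The difference between the E2 effects, wild types minus nulls, was 0.50 (SE 0.30, adjusted p = 0.744).

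Gzmb, the protease granzyme B of killer cells, falls outside the rule for genes given in full and was chosen after its values were seen. It read -3.65, -3.12, -3.28, -3.25 and -4.03 in E2-treated nulls and -4.51, -3.81, -4.60, -3.93 and -4.24 in placebo-treated nulls. It read -3.95, -4.09, -3.59, -4.36 and -3.49 in E2-treated wild types and -3.62, -4.03, -4.07, -3.89 and -4.04 in placebo-treated wild types. Of the placebo-treated nulls, 2 of 5 were well above background. The E2 difference in nulls was 0.75 (SE 0.20, unadjusted p = 0.00121, adjusted p = 0.800 by limma), and it was 0.23 with another background correction and 0.26 in the submitters' own normalized values.

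Gzma, perforin (Prf1), Nkg7 and the interleukin receptor chain Il2rb differed with E2 by -0.11 (Nkg7) to 0.30 (Il2rb) in nulls and by -0.14 (Prf1) to 0.38 (Il2rb) in wild types. Nkg7, a granule protein, has a second detected probe, which had r = -0.0199 and rho = 0.00150 with the brightest (permutation p = 0.933 and 0.998, adjusted p = 0.982 and 0.998). The mean level was 1.715 at the brightest Nkg7 probe and -3.90 at the second.

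All 3 B cell markers lay above 0 with E2 in both genotypes, and none passed the test. Of these, Ms4a1 met the filter on dim probes through the E2-treated groups alone, which favoured a difference above 0. Cd79b, a signalling chain of the B cell receptor, read -1.96, -1.19, -1.47, -0.78 and -1.94 in E2-treated nulls and -2.0, -0.98, -1.83, -1.35 and -1.85 in placebo-treated nulls. In wild types it read -1.07, -1.02, -0.91, -1.34 and -1.40 with E2 and -2.30, -1.99, -1.81, -1.30 and -1.13 with placebo. Animals 4 and 5 of the placebo-treated wild types lay within the E2 range. The difference was 0.13 in nulls (SE 0.25, adjusted p = 0.972 by limma) and 0.56 in wild types (SE 0.25, unadjusted p = 0.0410, adjusted p = 0.578). Its partner chain Cd79a differed by 0.04 in nulls and 0.01 in wild types, and the pair had r = 0.374 and rho = 0.370 (permutation p = 0.105 and 0.109, adjusted p = 0.195 and 0.202). Ms4a1, the CD20 antigen, differed by 0.46 in nulls and 0.86 in wild types (SE 0.60 for each) and was well above background on 4, 2, 4 and 3 arrays of E2-treated nulls, placebo-treated nulls, E2-treated wild types and placebo-treated wild types.

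S100a8 and S100a9, partner calcium-binding proteins of neutrophils and monocytes, passed no test for E2 or genotype and followed each other from liver to liver. S100a8 read -2.68, -1.42, -2.71, -1.51 and -1.79 in E2-treated nulls, -0.65, -2.99, -1.47, -2.20 and -3.41 in placebo-treated nulls, -1.35, -1.09, -1.97, -2.26 and -2.75 in E2-treated wild types and -2.54, -1.35, -2.34, -2.10 and -1.95 in placebo-treated wild types. S100a9 read 0.17, 1.14, -0.07, 1.05 and 0.99 in E2-treated nulls, 1.98, -0.13, 1.12, 0.39 and -0.48 in placebo-treated nulls, 0.96, 1.23, 0.45, -0.07 and -0.42 in E2-treated wild types and -0.12, 1.26, 0.09, 0.27 and 0.37 in placebo-treated wild types. The same animal led each group in both genes, and the groups overlapped throughout. The E2 difference was 0.12 in nulls and 0.17 in wild types for S100a8 (SE 0.45), and 0.08 and 0.06 for S100a9 (SE 0.42). With all animals, the effect in wild types minus that in nulls was 0.05 for S100a8. Without animals numbered below 750 it was -1.07, and the adjusted p by limma was 0.9998. That smaller set kept only animals 4 and 5 of the placebo-treated nulls.

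The pair had r = 0.956 and rho = 0.961 (permutation p = 1e-05 for each, adjusted to 3.25e-05 and 3.545e-05), with r = 0.942 without the farthest 2 and 0.959 and 0.930 on the slides. S100a8 and Clec4f had r = 0.0864 and rho = -0.00451 (permutation p = 0.718 and 0.988, adjusted p = 0.869 and 0.998). S100a8 and Hba-a1 had r = 0.349 and rho = 0.310 (permutation p = 0.131 and 0.183, adjusted p = 0.233 and 0.286).

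H2-Aa, H2-Ab1, H2-Eb1 and Cd74 encode the chains of major histocompatibility complex (MHC) class II and their invariant chain, which load peptides for display to helper T cells. B cells, dendritic cells and part of the macrophages make them. In their promoters an X box and a Y box a short way apart bind a shared set of factors that recruits the activator Ciita, so the genes are known to be switched together. RefSeq promoters (GRCm38.p6) were found for 28 of the 40 markers, as 29 entries, and the 250 bases before each start were searched on both strands. GCAAC, part of the X box, followed within 10 to 35 bases by the Y box letters CTGATTGG occurred in 2 of the 29 entries, H2-Aa and H2-Eb1, and in 32 of all 32851 promoters (0.0974%). CTGATTGG alone occurred in 2 of 29 and in 3.83% of all. The 100 bases before the start of each are shown with both motifs in capitals, at chr17:34287824-34287923 on the minus strand and chr17:34305767-34305866 on the plus strand.
H2-Aa: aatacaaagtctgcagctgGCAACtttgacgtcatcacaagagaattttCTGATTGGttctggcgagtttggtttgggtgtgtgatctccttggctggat
H2-Eb1: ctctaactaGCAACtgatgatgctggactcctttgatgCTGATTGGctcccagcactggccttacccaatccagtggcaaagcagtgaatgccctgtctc
The motifs lie 25 bases apart in H2-Aa and 24 in H2-Eb1. H2-Ab1 and Cd74 were not among the matches. The markers without an entry are not listed here, so for these genes a missing promoter and a missing motif cannot be told apart. An estrogen response element, searched as GGTCA and TGACC with any 3 bases between, occurred in 0 of the 29 entries and in 21 of all 32851 (0.0639%). A match is a description of these letters only.

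The MHC class II genes lay on opposite sides of 0 with E2 in the 2 genotypes, without passing a test. All 4 lay below 0 in nulls, with a median of -0.22, and above 0 in wild types, with a median of 0.19. Leaving out 1 animal at a time put the list's median at -0.45 to -0.008 in nulls and at 0.051 to 0.352 in wild types. H2-Aa read -0.62, 0.11, -0.15, 1.07 and -0.42 in E2-treated nulls, 0.29, -0.16, -0.02, 1.07 and 0.45 in placebo-treated nulls, 0.18, 0.13, 0.35, -0.45 and 0.69 in E2-treated wild types and -0.36, 0.27, -0.54, 0.27 and 0.42 in placebo-treated wild types. H2-Eb1 read 2.75, 3.45, 3.19, 4.18 and 3.01 in E2-treated nulls, 3.67, 2.99, 3.22, 4.37 and 3.50 in placebo-treated nulls, 3.39, 3.35, 3.66, 2.79 and 3.91 in E2-treated wild types and 2.95, 3.46, 2.60, 3.52 and 3.47 in placebo-treated wild types. Animal 4 was the highest of each null group in all 4 genes, and the groups overlapped.

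For H2-Aa the E2 difference was -0.33 in nulls and 0.17 in wild types (SE 0.30 for each, adjusted p = 0.920 and 0.913 by limma), and wild types minus nulls this was 0.50 (SE 0.43, interval -0.40 to 1.39, adjusted p = 0.857). For H2-Eb1 it was -0.23 in nulls and 0.22 in wild types (SE 0.29), and nulls exceeded wild types under placebo by 0.35 (SE 0.29, adjusted p = 0.745). The median of the list with E2 in nulls was -0.57, -0.19 and 0.34 on slides 1, 2 and 3. In wild types it was -0.38, -0.01 and 1.01 on slides 1, 2 and 4. The 1.01 rests on animal 5 of the E2-treated and animal 1 of the placebo-treated wild types alone. Of the E2-treated nulls, slide 3 held only animal 4. Under median centring the wild-type median was -0.03.

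H2-Aa and H2-Eb1 had r = 0.975 and rho = 0.961 (permutation p = 1e-05 for each, adjusted to 3.25e-05 and 3.545e-05), with r = 0.960 without the farthest 2 and 0.970 and 0.971 on the slides. H2-Aa and Ciita had r = 0.00976 and rho = 0.202 (permutation p = 0.967 and 0.392, adjusted p = 0.982 and 0.589). Their r was -0.569 on slide 1 and 0.680 on slide 2. H2-Aa and Clec4f had r = 0.591 and rho = 0.474 (permutation p = 0.00618 and 0.0356, adjusted to 0.0134 and 0.0731), with r = 0.387 without the farthest 2, 0.647 and 0.560 on the slides and 0.751 after group and slide means were subtracted. After group means were subtracted, the median pair correlation was 0.957 within MHC class II, 0.387 among the B cell markers, 0.040 among T cell markers and -0.008 among NK and cytotoxic markers. Single pairs ran from -0.07 to 0.59 among T cell markers and from -0.38 to 0.70 among NK and cytotoxic markers.

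**Figure D5:**
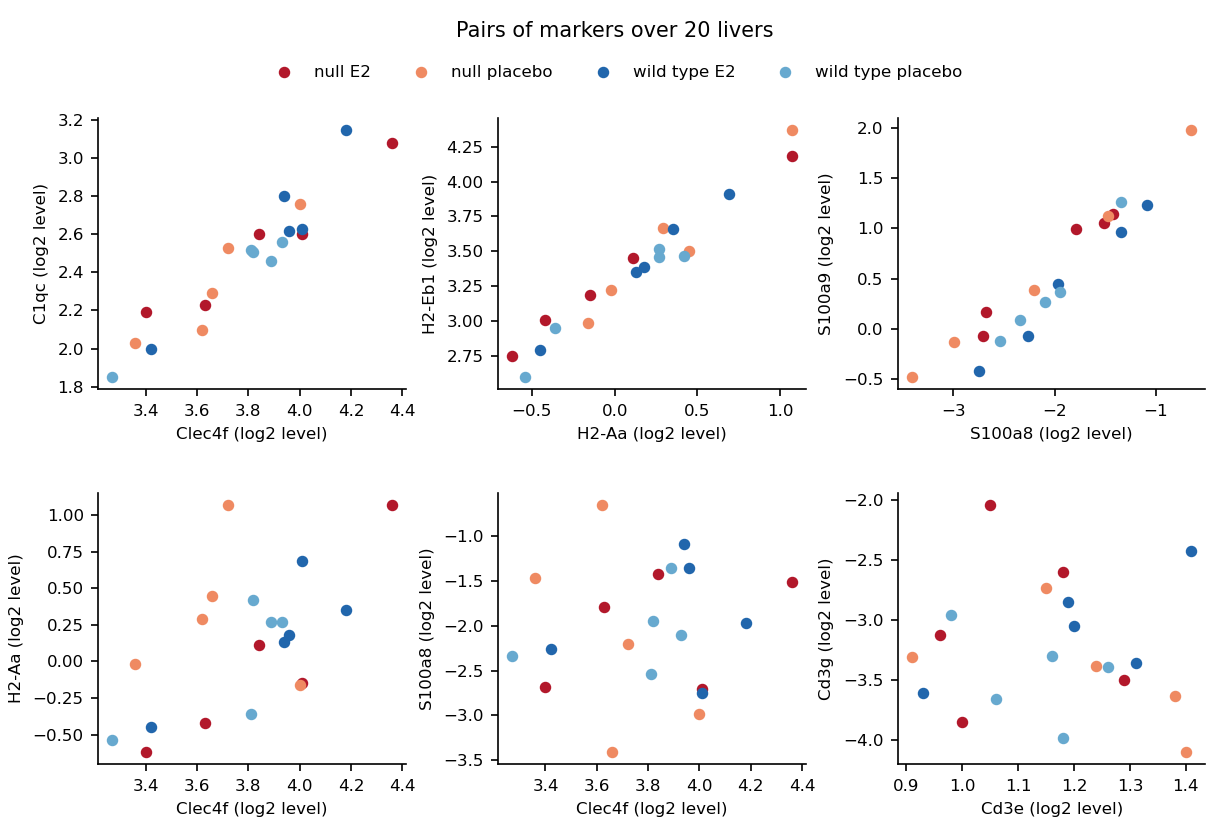
Log2 levels of pairs of markers in the 20 livers, coloured by group. Clec4f with C1qc, H2-Aa with H2-Eb1 and S100a8 with S100a9 fall along lines (r = 0.948, 0.975 and 0.956), Clec4f with H2-Aa less so (0.591), and Clec4f with S100a8 and Cd3e with Cd3g do not (0.0864 and -0.0803).

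Further genes of the same cell types gave few calls. Of 27 other macrophage genes tested, 17 lay above 0 with E2 in nulls and 18 in wild types, with medians of 0.03 and 0.13. Of these 1 passed a test: Id3, a regulator of transcription that Kupffer cells need for their identity in mice and that other liver cells also make, was lower in nulls, with a difference of -0.89 over both treatments (SE 0.19, adjusted p = 0.036 by limma). The call was kept in 12 of 29 alternatives and lost in 17, where the adjusted p reached 0.167, and the difference ran from -1.03 to -0.78 over all 29. It read 2.72 to 3.36 in E2-treated nulls and 2.37 to 3.74 in placebo-treated nulls, against 3.63 to 4.42 in E2-treated wild types and 3.49 to 4.83 in placebo-treated wild types. Of 14 other T and NK cell genes, 8 lay above 0 with E2 in nulls and 13 in wild types, with Cd3d at 0.59 in wild types (SE 0.26, adjusted p = 0.572).

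Of 6 other B and plasma cell genes, 5 lay above 0 with E2 in nulls and 1 in wild types, against 3 of 3 for the B cell markers in both genotypes. Those 3 include Ms4a1, which met the filter through the E2-treated groups alone. Of 10 other antigen presentation and dendritic cell genes, 3 lay above 0 with E2 in nulls and 8 in wild types, with Ciita at 1.91 (SE 0.76, adjusted p = 0.506 by limma) and Ccr7, the homing receptor of mature dendritic cells, at 0.66 (SE 0.20, adjusted p = 0.345) in wild types. Of 6 other granulocyte genes, 2 lay above 0 in each genotype.

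Markers of other liver cells are given beside these lists, and none of the sinusoidal, red cell or hepatocyte markers passed the test for E2. All 10 sinusoidal endothelial markers lay above 0 with E2 in wild types, with a median of 0.14, and 6 of 10 in nulls, also with a median of 0.14. Of 7 red cell markers, 2 lay above 0 with E2 in nulls and 7 in wild types, with medians of -0.08 and 0.49. Their mean deviation per animal ran from -0.15 to 0.30 in E2-treated nulls, -0.04 to 0.52 in placebo-treated nulls and -0.05 to 0.45 in E2-treated wild types, against -0.61 to -0.23 in placebo-treated wild types. Of 10 hepatocyte markers, 0 lay above 0 with E2 in nulls and 4 in wild types. Alas2, the first enzyme of haem synthesis in red cells, was 0.90 higher in nulls than in wild types under placebo (SE 0.12, adjusted p = 0.00249 by limma). That call was kept in 27 of 29 alternatives, with differences of 0.76 to 0.95 over all of them. Of the stellate cell and fibroblast markers, Ngfr, a neurotrophin receptor, was lower in nulls under E2, with a difference of -1.24 (SE 0.21, adjusted p = 0.00668 by limma). That call was kept in 28 of 29 alternatives, with differences of -1.33 to -1.04. The part of these cells in the values of the immune markers was not tested.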

How the data were processed

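Total liver RNA of 20 mice was labelled with Cy3 and hybridised to one-colour Agilent arrays, per the labels' protocols. The deposited scanner files hold fluorescence intensity per spot, background-corrected by Agilent Feature Extraction 10.10.1.1, per the file headers and the submitters' processing notes. The deposited series table holds log2 values of 32526 probes, and its notes name limma; column correlations with the scanner values were 0.9877 to 0.9936.

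The log2 of the processed intensity minus each array's 75th percentile was used. Non-uniform spots were left out and spots of a probe averaged. Kept probes (30960 of 55681) exceeded background clearly on 4 or 5 arrays of some group, and each gene was read at its brightest kept probe (6127 genes had several). Names came from accessions for 27229 probes, the files for 24301, current symbols for 3586 and synonyms for 565. Probe positions are those of mm9 in the file headers.

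One limma 3.58.1 model (R 4.3.3) with 4 group means (16 residual degrees of freedom) was fitted to 21998 genes, with 2-sided tests and Benjamini-Hochberg adjustment at 0.05, and was checked on simulated data. Correlations over livers used 100000 permutations (SciPy 1.17.1, Python 3.11.15), 2-sided. The number of arrays limits the precision. Replicates are separate animals. Alternatives were quantile or median scaling, normexp background, the deposited values, no filter, the mean of probes, slide or replicate blocks, leaving out animals with low identification numbers, and leaving out each animal.

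The markers and lists were chosen with earlier results of these data known. Values in all animals are given for markers with an adjusted p under 0.05, for the 3 largest differences of each contrast among markers measured on 4 or 5 arrays in all groups, and for the defining marker of each list. From the lists of further genes, those with an adjusted p under 0.05 or among the 2 smallest unadjusted p could be named. The rule for a pairing, every pair over 0.1, was not met: over 30 pairs of same-numbered arrays, correlations of deviations ran from -0.163 to 0.245, and 12 exceeded 0.1. Between E2-treated nulls and E2-treated wild types the 5 ran from 0.071 to 0.222, and 4 exceeded 0.1.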

Additional observations from a re-analysis of the deposited data

Results flagged for a closer look

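Within each group of 5 animals, the highest or lowest value was compared with its nearest neighbour as a share of the group's range (Dixon's critical value of 0.71). Of 152 groups, 7 held a value apart, and chance gives about 1 in 20. Animal 3 of the placebo-treated wild types was lowest and apart in 4 Kupffer markers, with log2 levels of 3.27 for Clec4f, 1.14 for C1qa, 0.82 for C1qb and 1.85 for C1qc. These 4 genes follow each other over the livers, so the 4 values are not independent. Animal 4 of the E2-treated nulls was highest and apart for Mrc1, at 2.40. Animal 1 of the E2-treated nulls was lowest and apart for Cx3cr1, at -4.20. Animal 4 of the placebo-treated nulls was highest and apart for Cd74, at 4.41.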

How the results depend on the processing

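No immune marker passed the threshold under any alternative in any of the 7 contrasts, and leaving out each animal gave 0 markers throughout. With a block for the replicate number, 0 of 38 markers passed, and 0, 90, 35, 92, 13, 138 and 28 of all genes did in the contrasts named next, in that order. Without it, the counts of all genes were 1 for E2 in nulls, 70 for E2 in wild types, 36 for the difference of these effects, 102 for genotype under E2, 16 for genotype under placebo, 153 for genotype over both treatments and 29 for E2 over both genotypes. Median scaling gave 0, 32, 18, 39, 7, 49 and 10, and leaving out animals numbered below 750 gave 0, 41, 10, 35, 2, 49 and 7. A block for the slide gave 2 for E2 in nulls, 9 and 68 for genotype under placebo and over both treatments, and 18 for E2 over both genotypes. Without the filter on dim probes these were 0 for E2 in nulls, 8 for genotype under placebo and 70 for genotype over both treatments, and the mean of probes gave 0 for E2 in nulls. Leaving out 1 animal at a time gave 0 to 2, 50 to 87, 31 to 40, 67 to 120, 6 to 46, 77 to 273 and 24 to 35. For genotype under placebo the lowest came without animal 3 of the placebo-treated wild types and the highest without animal 3 of the placebo-treated nulls; for genotype over both treatments they came without animal 5 of the E2-treated wild types and animal 5 of the placebo-treated wild types. The cause was not tested. Alas2 lost its call under median scaling (adjusted p = 0.174 by limma) and without animals numbered below 750 (0.0605), with differences of 0.90 and 0.77, and Ngfr lost it under the second of these (0.233), with a difference of -1.07. Read at probes 1 and 2, an alternative added after seeing the data, Itgam differed with E2 by 0.12 and -0.06 in nulls and by 0.52 and 0.62 in wild types. Without animals numbered below 750, the MHC class II median for nulls against wild types under placebo was 0.70, against 0.31. The 0.70 rests on animals 4 and 5 alone of the placebo-treated nulls. Of 7714 recomputed marker values, 20 moved by at least 1 SD. Among them, median scaling put Cd3e at -0.14 and Nkg7 at -0.20 for E2 in wild types. Without animals numbered below 750, Itgam was at -0.32 for E2 in nulls and Cd79a at 0.13 for genotype under placebo. The effect of E2 in wild types minus that in nulls was then -0.19 for Lyz2, -0.58 for Cd14, -1.07 for S100a8 and -1.09 for S100a9.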
